A study of Rattus norvegicus with 36 samples.

Results

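The respiratory chain of mitochondria is built from many small protein subunits, and the transcripts of its nuclear-encoded subunits were followed here in the liver of rats given decabromodiphenylethane (DBDPE), a brominated flame retardant. A gene was taken when its symbol in the array annotation began with Ndufa, Ndufb, Ndufc, Ndufs or Ndufv (complex I), Uqcr (complex III), Cox4 to Cox8 (complex IV) or Atp5 (complex V), or was Sdha, Sdhb, Sdhc, Sdhd (complex II), Cyc1 or Cycs. Assembly factors named Ndufaf were left out, and so were probe sets that name several genes. This gave 90 probe sets for 81 genes, out of 31042 probe sets and 14217 genes on the array: 34 genes of complex I, 4 of complex II, 8 of complex III, 19 of complex IV and 16 of complex V. A further 9 probe sets pair such a subunit with a related copy and are treated apart, among them those of Cox7a2, Uqcrb, Ndufs5, Atp5mc1, Atp5mc2 and cytochrome c (Cycs).

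The animals were male Harlan Sprague Dawley rats, 7 weeks old when the study began, dosed by gavage on 5 consecutive days with DBDPE in corn oil (5 ml/kg) at 970, 97.1, 9.71, 0.97 or 0.1 mg/kg, or with corn oil alone (vehicle). Tissue from the left liver lobe was taken 1 day after the final dose. Each of the 6 groups holds 6 arrays, 36 in all. Samples carry a number within their dose, and each was taken as 1 rat, so p-values measure the spread between these samples.

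Electrons from NADH enter the chain at complex I and those from succinate at complex II. They pass through complex III and cytochrome c to complex IV, where oxygen is reduced, and the proton gradient built on the way drives ATP synthesis by complex V. Hepatocytes are rich in mitochondria and depend on this chain for gluconeogenesis, urea synthesis and fatty acid oxidation. A few complex IV subunits exist as a common form and as a form restricted to muscle, testis or other tissues.

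The median signal of an array ranged from 5.07 to 5.12 (log2), and the least alike pair of arrays had r = 0.993 across probe sets. The hepatocyte markers Alb, Ttr, Apoa1, Serpina1 and Cps1 had mean log2 levels between 13.2 and 14.7 and lay above the array median on all 36 arrays. As a check of the dosing, Cyp1a1, which the aryl hydrocarbon receptor induces, was higher at 970 mg/kg than in vehicle by 6.23 on the log2 scale (95% interval 5.66 to 6.80, limma adjusted p = 9.190e-18). Its probe set lay above the array median on 12 of 36 arrays, so that difference is the measured one and may understate the change of the transcript. Because these are whole-tissue samples, fewer cells of a type and less RNA per cell cannot be told apart in any of the values that follow.

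The promoters of the subunit genes are shown first, since they carry a feature that the choice by name did not use. RefSeq's promoter table (GRCr8 build, 250 bases before to 50 after the gene start) held 72 of the 81 genes. Matches to 3 motifs were counted on both strands, each motif being known from studies of respiratory genes: the consensus of nuclear respiratory factor NRF1, CCGGAAG for the ETS factors that include GABP (also called NRF2), and AAGATGGC for YY1. The NRF1 consensus was in 13 of 72 subunit promoters (18.1%), against 4.71% of all 27457 promoters of the same length. The ETS letters were in 20 (27.8%, against 9.22%) and the YY1 letters in 16 (22.2%, against 3.44%). None of the 3 motifs was found in 32 of the 72 (44.4%), against 84.5% of all promoters. A match is a description of the letters in this window and not a bound site.

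The 250 bases before the start of 4 genes show the range. Uqcrc1, a core subunit of complex III, and Atp5me, a membrane subunit of complex V, are named again below for their values. Cox8a and Cox8b are the common and the muscle form of a complex IV subunit. Capitals mark the motif matches, and matches that reach past the start are not shown.
Uqcrc1 (GRCr8, chr8:118467973-118468222, plus strand): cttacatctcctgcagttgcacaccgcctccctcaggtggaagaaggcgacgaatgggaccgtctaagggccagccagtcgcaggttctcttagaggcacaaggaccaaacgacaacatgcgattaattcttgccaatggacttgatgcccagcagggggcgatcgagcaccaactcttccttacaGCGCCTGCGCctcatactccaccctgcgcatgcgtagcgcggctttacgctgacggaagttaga
Atp5me (GRCr8, chr14:1464610-1464859, plus strand): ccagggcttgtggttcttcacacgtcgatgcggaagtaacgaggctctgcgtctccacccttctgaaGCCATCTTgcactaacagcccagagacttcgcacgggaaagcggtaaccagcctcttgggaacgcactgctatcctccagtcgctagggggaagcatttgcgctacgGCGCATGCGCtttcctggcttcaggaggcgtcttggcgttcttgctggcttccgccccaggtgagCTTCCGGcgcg
Cox8a (GRCr8, chr1:213833624-213833873, minus strand): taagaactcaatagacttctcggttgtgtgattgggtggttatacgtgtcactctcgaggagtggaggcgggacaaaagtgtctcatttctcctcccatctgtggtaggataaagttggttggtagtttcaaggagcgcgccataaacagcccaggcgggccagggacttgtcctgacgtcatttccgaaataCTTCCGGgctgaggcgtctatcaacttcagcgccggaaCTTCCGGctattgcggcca
Cox8b (GRCr8, chr1:205408274-205408523, minus strand): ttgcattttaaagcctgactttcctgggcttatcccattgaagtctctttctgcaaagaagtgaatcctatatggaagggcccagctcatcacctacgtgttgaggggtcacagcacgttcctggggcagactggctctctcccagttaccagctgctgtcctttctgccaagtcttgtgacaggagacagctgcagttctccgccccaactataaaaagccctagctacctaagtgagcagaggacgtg
In Uqcrc1 the capitals mark an NRF1 match that begins 64 bases before the start, and a YY1 match begins at its last base, 1 before the start. In Atp5me they mark a YY1 match at 183 bases before the start, an NRF1 match at 76 and an ETS match at 11. The NRF1 match of Atp5me reads the same on both strands. Cox8a has ETS matches at 57 and 19 bases before the start, and a YY1 match that begins 4 before the start and crosses it. Cox8b has no match to any of the 3.

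The subunit transcripts were strongly and evenly detected. Of the 81 genes, each read from the probe set with its strongest average signal, 73 lay above the array median on all 36 arrays and 68 had a mean log2 level of 10 or more. The 7 that lay below the array median on every array were all tissue-restricted forms: Cox4i2, Cox6a2, Cox6b2, Cox7a1, Cox7b2, Cox8b and Ndufa4l2. The remaining gene was the pseudogene Cox6c-ps1. Signals of different probe sets are not comparable as amounts of RNA, so no order of abundance among subunits is drawn.

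The spread between animals of one dose was small for these genes. The residual SD within dose groups had a median of 0.057 on the log2 scale over the 81 genes, against 0.13 over all 14217. Strong probe sets vary less in general: among genes with a mean level of 10 or more the median was 0.054 for the 68 subunit genes and 0.079 for all 1158. Atp5pb, a stator subunit of complex V, had the smallest residual SD of the subunit probe sets (0.032), followed by Cox7c of complex IV (0.035). The largest belonged to a probe set of Atp5if1, the inhibitor of complex V (0.23), and to the weakly detected Cox6b2 (0.19).

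**Figure D1:**
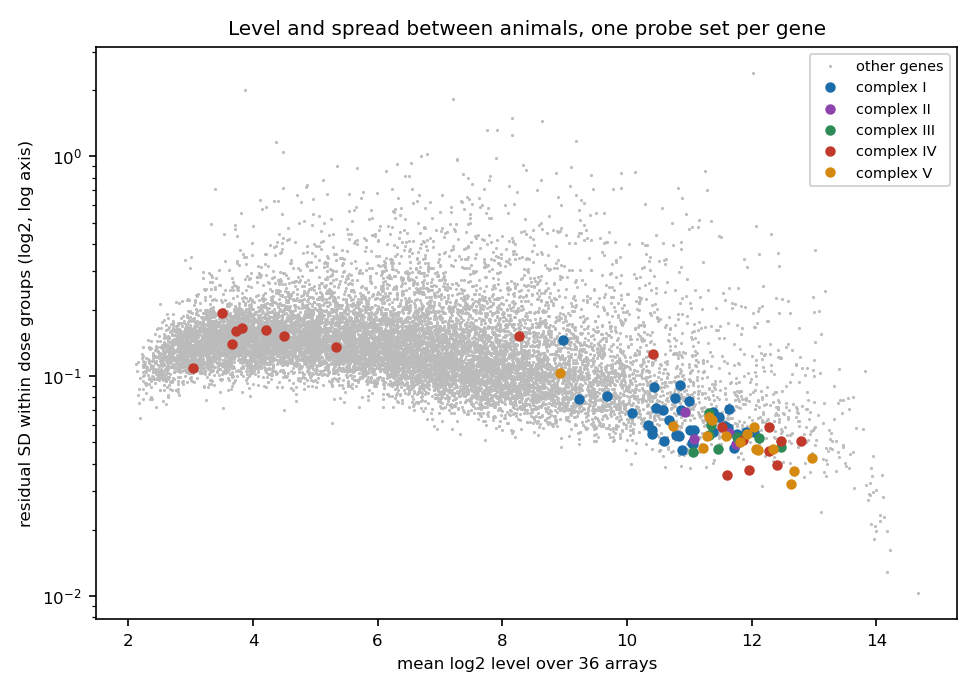
Residual SD within dose groups (log2, log axis) against mean log2 level over 36 arrays, 1 point per gene, coloured by complex for the 81 subunit genes and grey for other genes. Most subunit genes sit at the lower right, at levels of 10 or more and with a median SD of 0.054, while the 7 tissue-restricted forms sit at the left, below every array median.

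Each dose was compared with vehicle, to ask whether DBDPE shifts the transcripts of the respiratory chain. No subunit gene passed the test at any dose. In limma over all 31042 probe sets with Benjamini-Hochberg adjustment, 0 of the 90 subunit probe sets passed at 970, 97.1, 9.71, 0.97 or 0.1 mg/kg, in the F test over the 5 doses or in the trend over dose steps. The background was 0.00644% of all probe sets at 970 mg/kg, at 97.1 mg/kg, in the F test and in the trend, where the 2 that passed were Cyp1a1 and Cyp1a2, and 0% at the other doses. The smallest limma adjusted p of a subunit probe set was 0.86, in the trend.

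Unadjusted limma p-values under 0.05 were about as frequent among the subunits as among all probe sets, or less so. The highest dose had 5 of 90 (5.56%, background 4.87%), at 97.1 mg/kg 1 (1.11%, background 5.42%), at 9.71 mg/kg 3 (3.33%, background 5.06%), at 0.97 mg/kg 3 (3.33%, background 4.92%) and at 0.1 mg/kg 1 (1.11%, background 4.46%). In the trend 6 were (6.67%, background 5.7%) and in the F test 2 (2.22%, background 4.18%). Of the 68 subunit genes with a level of 10 or more, 4 (5.88%) had such p-values at 970 mg/kg and 5 (7.35%) in the trend, all downward. Over all 1158 genes of that level the shares were 3.71%, with 25 of 43 downward, and 5.18%, with 42 of 60 downward. At each lower dose and in the F test the subunit share at that level was the smaller.

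The intervals, which are not adjusted for the number of probe sets, give the range of fold changes compatible with the values of each gene. They are not the smallest change that the adjusted test could have called. At 970 mg/kg the 95% interval of the fold change lay within 1.2-fold in either direction for 78 of 81 subunit genes (96.3%), against 72.9% of all genes, and within 1.1-fold for 54 (66.7%), against 11.7%. The contrast was smaller at like signal: among genes with a level of 10 or more, the shares within 1.2-fold were 100% of 68 subunit genes and 86.0% of all 1158, and within 1.1-fold 77.9% and 46.4%. All 68 subunit genes with a level of 10 or more had intervals within 1.2-fold at every one of the 5 doses. Their log2 fold changes ran from -0.12 to 0.09 over the doses, and the outermost interval bounds corresponded to 0.866-fold and 1.18-fold.

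As a group the subunits lay close to vehicle. The median log2 fold change over the 81 genes was -0.017 at 970 mg/kg, -0.010 at 97.1, -0.0038 at 9.71, -0.021 at 0.97 and -0.0061 at 0.1 mg/kg. Over all genes tested the same medians were -0.0052, -0.00079, -0.0054, -0.0023 and 0.0012. Below 0 were 56 of 81 genes at 970 mg/kg, 50 at 97.1, 44 at 9.71, 64 at 0.97 and 46 at 0.1 mg/kg. Among the 68 subunit genes with a level of 10 or more, 73.5% were below 0 at 970 mg/kg (median -0.018), against 60.4% of all 1158 genes of that level (-0.014). The shares were 64.7% and 59.8% at 97.1 mg/kg, 55.9% and 56.6% at 9.71, 85.3% and 63.3% at 0.97 and 54.4% and 49.1% at 0.1 mg/kg. These shares are descriptions without a test, since genes of one array are not independent. Vehicle replicate 5 weighed on the medians over the 81 genes: without it they were -0.0073 at 970 mg/kg, -0.00064 at 97.1, 0.0059 at 9.71, -0.013 at 0.97 and 0.0021 at 0.1 mg/kg. The 5 comparisons share their vehicle arrays. Averaged over the 81 genes, each animal's log2 difference from the vehicle mean was -0.014 ± 0.031 (SD, n = 6) at 970 mg/kg, from -0.064 to 0.021. The vehicle animals ran from -0.025 to 0.037, so these groups overlapped. The lowest group mean was at 0.97 mg/kg, -0.019 ± 0.018 (SD, n = 6), from -0.044 to 0.0022, which also overlapped vehicle.

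**Figure D2:**
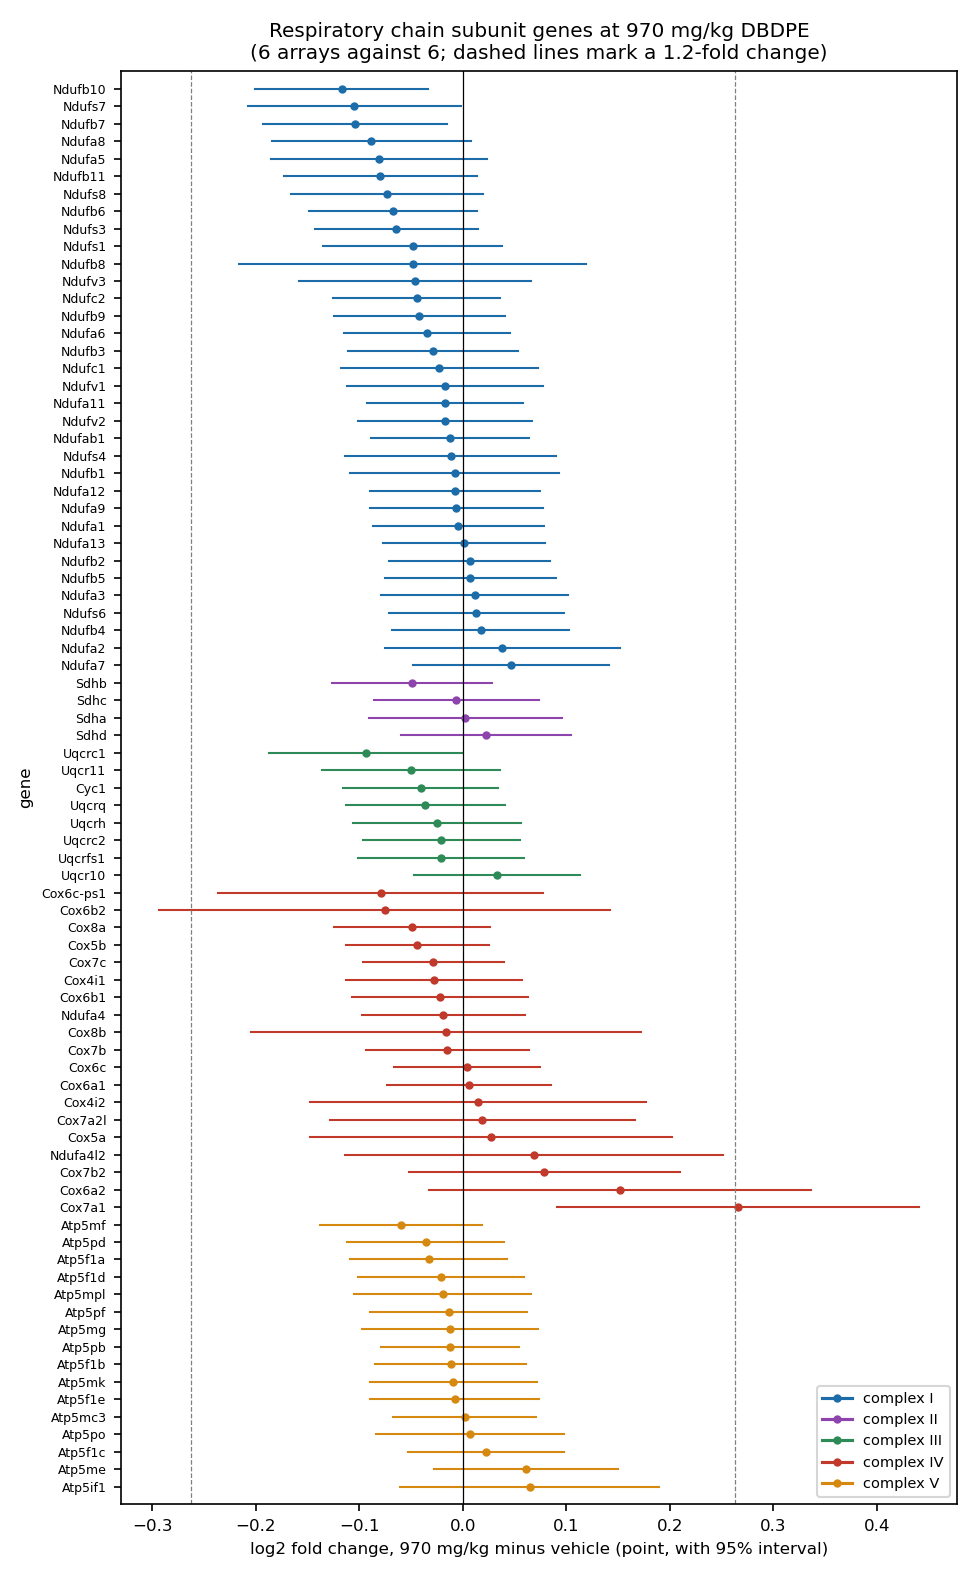
Log2 fold change at 970 mg/kg against vehicle for each of the 81 subunit genes, grouped and coloured by complex; points are estimates and lines 95% intervals from limma, and dashed lines mark 1.2-fold. For 78 genes the whole interval lies between the dashed lines; Cox7a1 lies farthest to the right, at 0.27.

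Complex I, which oxidises NADH, had 34 genes measured, with a median log2 fold change of -0.020 at 970 mg/kg and a range from -0.12 to 0.05. Below 0 were 26 of the 34. The 6 catalytic core subunits measured (Ndufs1, Ndufs3, Ndufs7, Ndufs8, Ndufv1 and Ndufv2), which carry the flavin and iron-sulfur clusters or line the quinone path, had a median of -0.056 and were all below 0. The 28 other subunits, which surround the core, had a median of -0.015, with 20 below 0. No complex I gene passed the test. Of all 1158 genes with a level of 10 or more, 60.4% were below 0 at this dose (median -0.014). Of the 6 core subunits, 5 were below 0 at 97.1 mg/kg, 6 at 9.71, 5 at 0.97 and 2 at 0.1 mg/kg. Of the 1158 genes with a level of 10 or more, 59.8%, 56.6%, 63.3% and 49.1% were below 0 at these doses, in that order. A difference between core and other subunits was not tested.

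Ndufb10, an accessory subunit of the membrane arm, had the smallest F test p of all subunit genes. In vehicle its log2 level had a lowest value of 10.99, a median of 11.07 and a highest of 11.13. At 970 mg/kg the lowest was 10.85, the median 10.95 and the highest 11.05. At 9.71 mg/kg the same values were 10.93, 10.95 and 11.03, and at 97.1 mg/kg, between those doses, the median was 11.08 and the highest 11.11. At 970 mg/kg 4 of 6 animals lay below every vehicle animal, and at 9.71 mg/kg 5 of 6 did, but the 97.1 mg/kg animals overlapped vehicle. The log2 fold changes were -0.12 (95% interval -0.20 to -0.03, limma adjusted p = 0.97) at 970 mg/kg, -0.11 (-0.20 to -0.03, limma adjusted p = 0.97) at 9.71 and -0.01 at 97.1 mg/kg. The values therefore did not follow the order of the doses.

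Ndufb7, another accessory subunit, had the smallest p among the falling slopes. Its group means ran from 10.71 ± 0.08 (SD, n = 6) in vehicle through 10.70 ± 0.04 at 0.1, 10.69 ± 0.05 at 0.97, 10.66 ± 0.08 at 9.71 and 10.66 ± 0.07 at 97.1 to 10.61 ± 0.05 at 970 mg/kg. The slope was -0.019 log2 units per dose step (95% interval -0.033 to -0.0046, limma adjusted p = 0.86), and the vehicle and 970 mg/kg animals overlapped, from 10.60 to 10.81 and from 10.54 to 10.67. The core subunit Ndufs7 had a slope of -0.020 (limma adjusted p = 0.86) and a log2 fold change of -0.10 at 970 mg/kg. Ndufa8 had a slope of -0.016 with a limma adjusted p of 0.88. Ndufb9, the complex I subunit with the highest signal, had -0.04 at 970 mg/kg.

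Complex II, the succinate dehydrogenase that also serves the tricarboxylic acid cycle, had all 4 genes measured. Their log2 fold changes at 970 mg/kg were 0.002 for the flavoprotein Sdha (95% interval -0.09 to 0.10), -0.05 for the iron-sulfur subunit Sdhb (-0.13 to 0.03), -0.01 for the membrane anchor Sdhc and 0.02 for the anchor Sdhd. Sdha had its highest group mean at 0.1 mg/kg, a log2 fold change of 0.08, and its lowest at 9.71 mg/kg, 10.89 ± 0.07 (SD, n = 6) against 10.93 ± 0.05 in vehicle. Sdhd is read by 2 probe sets, which differed in sign at 970 mg/kg (0.02 and -0.03) by less than their interval widths.

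Complex III, which passes electrons from ubiquinol to cytochrome c, had 8 genes measured, with a median of -0.031 at 970 mg/kg and 7 below 0 (87.5%). Of all 1158 genes with a level of 10 or more, 60.4% were below 0 at this dose, with a median of -0.014. Vehicle replicate 5 lay above its group mean by 0.055 on average over complex III, and its part in the median was not tested. Uqcrc1, a core subunit whose promoter is printed above, was the gene of smallest F test p in this complex. Its vehicle animals had a lowest log2 level of 11.35, a median of 11.40 and a highest of 11.48. At 9.71 mg/kg the values were 11.22, 11.30 and 11.34, so that 6 of 6 animals lay below every vehicle animal. Over all probe sets 0.11% did so at this dose, and Uqcrc1 was the 1 subunit probe set that did. At 970 mg/kg 0 subunit probe sets had all 6 animals above every vehicle animal (background 0.116%) or below (0.0838%), and the same held at 97.1 mg/kg (0.0548% and 0.0966%) and 0.1 mg/kg (0.0805% and 0.058%). None lay wholly above vehicle at 9.71 mg/kg (0.0709%) or at 0.97 mg/kg (0.129%). Its values at 970 mg/kg were 11.23, 11.30 and 11.43, which overlap vehicle.

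The log2 fold change of Uqcrc1 was -0.08 at 0.1, -0.11 at 0.97, -0.11 at 9.71, -0.11 at 97.1 and -0.09 at 970 mg/kg, with an unadjusted limma p under 0.05 at 4 of the 5 doses. None passed: the smallest limma adjusted p over the doses was 0.90. These values share 1 set of vehicle arrays, and they were as large at 0.97 mg/kg as at 970 mg/kg. Its partner core subunit Uqcrc2 had -0.02 at 970 mg/kg, with -0.02 in a second probe set, and Cyc1, the cytochrome that hands electrons on to cytochrome c, had -0.04. Uqcrq, the complex III subunit with the highest signal, had -0.04 at 970 mg/kg, and -0.01 without vehicle replicate 5.

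**Figure D3:**
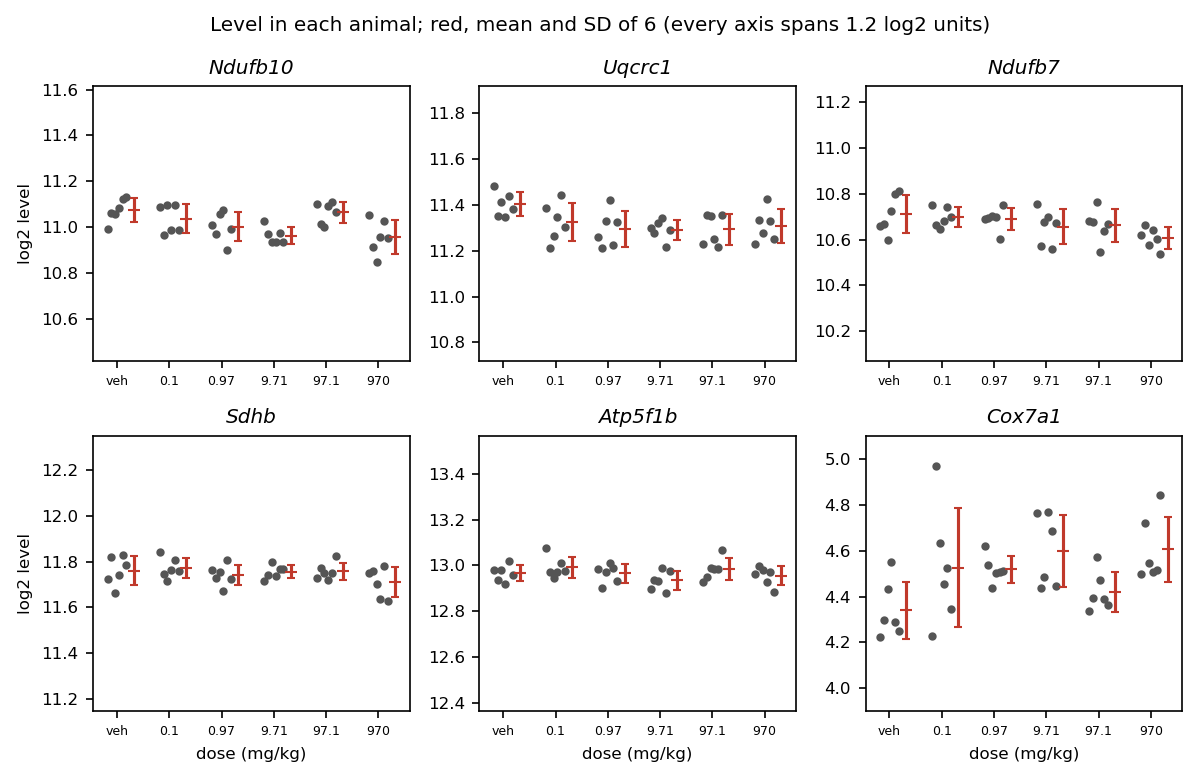
Log2 level of 6 subunit genes in each animal by dose, with the mean and SD of 6 in red; every vertical axis spans 1.2 log2 units. Uqcrc1 at 9.71 mg/kg lies below every vehicle animal, Ndufb10 is lower at 9.71 and 970 but not at 97.1 mg/kg, Sdhb and Atp5f1b keep to a narrow band, and Cox7a1, a weakly detected muscle form, scatters more widely.

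Complex IV, the cytochrome c oxidase, splits into its common subunits and the tissue-restricted forms. The 10 common subunits measured had a median log2 fold change of -0.020 at 970 mg/kg and ranged from -0.05 to 0.03. They include Cox4i1 (-0.03), a regulatory subunit, Cox5a (0.03), Cox5b (-0.04), Cox6a1 (0.01), Cox6b1 (-0.02), Cox6c (0.004), Cox7b (-0.01), Cox7c (-0.03), Cox8a (-0.05, or -0.02 without vehicle replicate 5) and Ndufa4 (-0.02), which was first assigned to complex I. Cox7b, the complex IV subunit with the highest signal, had group means between 12.77 and 12.80. Cox7a2l, which helps to join complexes III and IV, had 0.02.

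The 7 tissue-restricted forms were at low signal in every animal, and their common partners were far above the array median on the same arrays. Cox7a1, the heart and skeletal muscle form of subunit 7a, had the smallest p among rising subunits at 970, 9.71, 0.97 and 0.1 mg/kg. Its vehicle animals had a lowest log2 level of 4.22, a median of 4.29 and a highest of 4.55, and the 970 mg/kg animals 4.50, 4.53 and 4.84. Of the latter, 2 of 6 lay above every vehicle animal. The log2 fold change was 0.27 at 970 mg/kg (95% interval 0.09 to 0.44, limma adjusted p = 0.97), 0.08 at 97.1, 0.26 at 9.71, 0.18 at 0.97 and 0.19 at 0.1 mg/kg, again against the same vehicle arrays and not in the order of the doses. At 0.1 mg/kg single animals ran from 4.23 to 4.97. All Cox7a1 values lay below the array median.

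Striated muscle markers were read beside Cox7a1. All 8 (Acta1, Actn2, Ckm, Mb, Myh6, Myh7, Tnnt2 and Tnnt3) lay below the array median on all 36 arrays. Their summed signal, on a linear scale, ran from 88.3 to 98.7 in vehicle and from 85.9 to 99.0 at 970 mg/kg. Their median log2 fold change was -0.0050 at 970 mg/kg, with 4 of 8 above 0. The adipocyte markers Adipoq, Plin1, Lep and Ucp1 also lay below the array median on every array, and Cidea, a lipid droplet gene that liver can express, lay above it.

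Cox6b2, the testis form of subunit 6b, was lowest at 0.97 mg/kg. Its vehicle animals ran from 3.48 to 4.04 with a median of 3.56, and the 0.97 mg/kg animals from 3.20 to 3.44 with a median of 3.37. Thus 6 of 6 lay below every vehicle animal, at a signal below the array median on every array. Cox6b2 was the 1 of 90 subunit probe sets that did so at this dose, and 0.106% of all probe sets did. The log2 fold change was -0.29 (95% interval -0.51 to -0.08, limma adjusted p = 0.98). At 970 mg/kg it was -0.08, and 0.0045 without vehicle replicate 5. Cox6a2, the muscle form of subunit 6a, had the smallest p among rising slopes, 0.030 per dose step (limma adjusted p = 0.87), with group means from 4.15 ± 0.30 (SD, n = 6) in vehicle to 4.30 ± 0.11 at 970 mg/kg, which overlap. Cox4i2, a form of subunit 4 found mostly in lung, had 0.01 at 970 mg/kg, Cox8b -0.02, Cox7b2 0.08 and Ndufa4l2, a hypoxia-induced relative of Ndufa4, 0.07.

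Complex V, the ATP synthase, had 16 genes measured, with a median of -0.012 at 970 mg/kg and 11 below 0 (68.8%). Over all 1158 genes with a level of 10 or more the median was -0.014 and 60.4% were below 0. The 5 subunits of the catalytic head of complex V were within 0.04 of 0 on the log2 scale: Atp5f1a (-0.03), Atp5f1b (-0.01), Atp5f1c (0.02), Atp5f1d (-0.02) and Atp5f1e (-0.01). Atp5f1b, which holds the catalytic sites, had the highest signal of this complex, with a lowest, median and highest log2 level of 12.92, 12.97 and 13.02 in vehicle and of 12.89, 12.97 and 13.00 at 970 mg/kg. Its 95% interval at 970 mg/kg ran from -0.09 to 0.06.

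The 10 membrane, stator and ring subunits had a median of -0.012 at 970 mg/kg. Among them Atp5me had the smallest p among rising subunits at 97.1 mg/kg. Its animals ran from 11.28 to 11.37 in vehicle and from 11.35 to 11.51 at 97.1 mg/kg, a log2 fold change of 0.07 (limma adjusted p = 0.97), with 0.06 at 970 and 9.71 mg/kg. A second probe set of Atp5me, below the array median on every array, went the other way. Its group means were 3.81 in vehicle, 3.73 at 97.1, 3.70 at 9.71 and 3.65 at 970 mg/kg. Atp5mpl, the complex V gene of smallest F test p, had its lowest group mean at 0.97 mg/kg, 10.68 ± 0.05 (SD, n = 6) against 10.76 ± 0.03 in vehicle. Atp5pb had -0.01 at 970 mg/kg with an interval from -0.08 to 0.05. The inhibitor Atp5if1 had 0.06 in its strongest probe set. Its weaker probe sets differed in direction, with group means of 5.83 in vehicle against 5.98 at 970 mg/kg, and of 5.54 against 5.51.

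Exact permutation tests (two-sided, 6 against 6) were run on the member of smallest limma p in each direction at each dose, 10 tests in all. Because these genes were picked for their small p among 81, the results describe the values and are not independent evidence. The smallest exact p was 0.00216 for Cox6b2 at 0.97 mg/kg, or 0.0216 adjusted over the 10 picked tests alone. It is the least that 6 against 6 can give and follows from the full separation already described. The adjustment does not cover the 81 genes from which the tests were picked. Over all probe sets the limma adjusted p of Cox6b2 at this dose was 0.98. Ndufb10 had an exact p of 0.0130 at 970 mg/kg and 0.00433 at 9.71 mg/kg, and Cox7a1 had 0.0108 at 970 mg/kg. The largest of the 10 were 0.134 for Cox7a1 and 0.0952 for Uqcrc1, both exact p-values at 0.1 mg/kg.

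The probe sets shared with a related copy gave no call either, with 0 of 9 past the limma threshold at 970 mg/kg. Cytochrome c, the mobile carrier between complexes III and IV, is read by 2 of them, at 0.02 and 0.01. The others had -0.01 (Cox7a2), -0.01 (Uqcrb), 0.01 (Ndufs5), -0.02 (Ndufa10), 0.01 (a second probe set of Cox5a), -0.03 (Atp5mc1) and -0.11 (Atp5mc2, limma adjusted p = 0.97). Signals of parent gene and copy cannot be separated in these.

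The neighbouring mitochondrial pathways were read from lists of their own. Assembly factors, which build the complexes, had 45 genes measured, with 0 past the limma threshold at 970 mg/kg and 14 above 0. Of 73 mitochondrial ribosome genes 0 passed and 9 were above 0. Of these 73, 1 (Mrpl15, -0.11) had an unadjusted limma p under 0.05 (1.37%, against 4.87% of all probe sets). Of 11 tricarboxylic acid cycle genes 0 passed and 1 was above 0, with Cs, the citrate synthase, at -0.09 and Idh3a at -0.11. Of 9 carriers and uncoupling genes 0 passed, with the ATP/ADP carriers Slc25a4 and Slc25a5 at -0.12 and -0.04. Below 0 were 68.9% of the assembly factors and 87.7% of the ribosome genes. So were 90.9% of the tricarboxylic acid cycle genes and 77.8% of the carriers and uncoupling genes. Over all genes tested 52.5% were below 0, and 60.4% of the 1158 genes with a level of 10 or more. The part of vehicle replicate 5 in the shares of these lists was not tested.

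Among 13 regulators of respiratory genes 0 passed at any dose. Nrf1, the factor of the first motif, was weakly detected, above the array median on 31 of 36 arrays, and had a log2 fold change of -0.22 at 970 mg/kg (95% interval -0.42 to -0.02, limma adjusted p = 0.97), and Gabpb1, a subunit of GABP, had -0.14 (-0.32 to 0.04). The mitochondrial transcription factor Tfam had -0.05 and the coactivator Ppargc1a 0.03 at 970 mg/kg. Yy1 had -0.03.

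The subunits also differed between animals of one dose. Each animal was scored by the share of the 68 subunit genes with a level of 10 or more that lay above the mean of their own dose group, a measure that removes any difference between doses. In vehicle replicate 5 this was 62 of 68 genes (91.2%), and in vehicle replicate 4 it was 15 (22.1%). In 97.1 mg/kg replicate 4 it was 8 (11.8%) and in replicate 6 of the same dose 55 (80.9%). In 970 mg/kg replicate 6 it was 10 (14.7%), and in 9.71 mg/kg replicate 1 it was 59 (86.8%). Over 75% of the genes lay above the mean in 7 of 36 arrays and under 25% in 6.

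Other genes of like level did not tilt as far. Among the 1090 other genes with a level of 10 or more the share ran from 36.8% to 65.2% over the 36 arrays, and 0 arrays passed 75%. The complexes tended to lean the same way: in 24 of 36 arrays the mean deviations of complexes I, III, IV and V had the same sign. Complex II, with 4 genes, was left out of that count. Among those arrays it had the other sign in 97.1 mg/kg replicate 1 and in 970 mg/kg replicates 3 and 4. The shifts were small, with a mean deviation over the 68 genes between -0.058 and 0.057 on the log2 scale, and an SD over arrays of 0.030 against 0.013 for the 1090 other genes. In 26 of 36 arrays both sets leaned to the same side. Of the mitochondrial ribosome genes, over 75% lay above their dose group mean in 8 arrays and under 25% in 5, and in vehicle replicate 5 the share was 89.0%. The genes of an array share its RNA, labelling and normalization, and the part of these in the shifts was not tested.

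**Figure D4:**
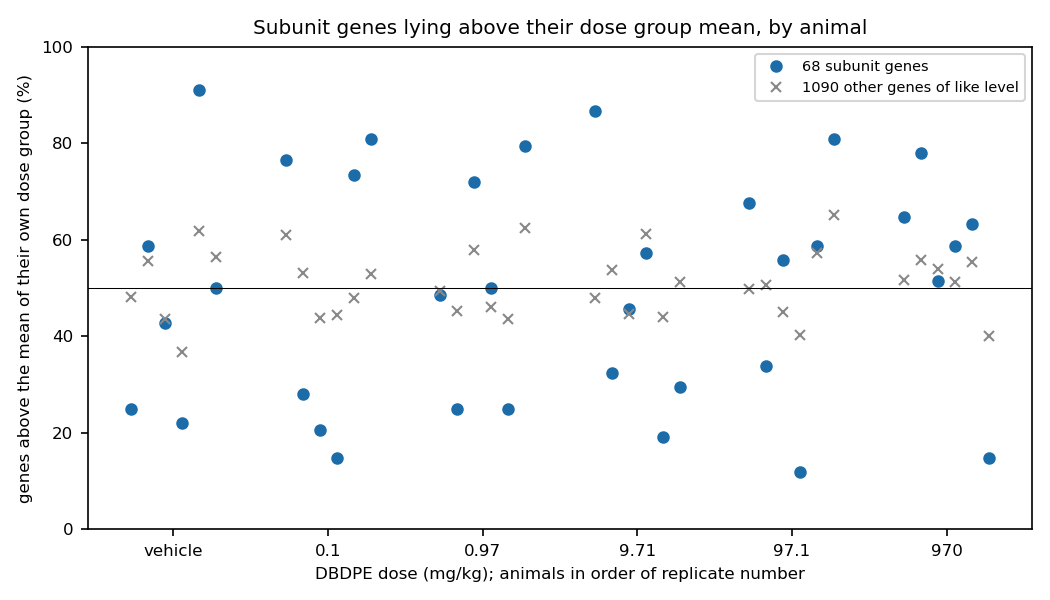
Percentage of genes above the mean of their own dose group in each of the 36 animals, for the 68 subunit genes with a level of 10 or more (blue) and the 1090 other genes of like level (grey crosses), by dose and replicate number. The blue points reach from 11.8% to 91.2%, with animals over 75% and at or under 25% in each dose group, while the crosses stay between 36.8% and 65.2%.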

How the data were processed

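RMA and affy are the tools that the submitters' processing notes name, without versions. The deposited log2 signals, 1 value for each probe set and array, therefore come from background correction and quantile normalization as RMA does them, so a change shared by most transcripts would not show. The number of arrays limits the precision. The 57 control probe sets were left out and no filter on low values was applied. Gene names come from the platform annotation, which names no genome build. With limma 3.58.1 in R 4.3.3 (lmFit, eBayes) each dose was compared with vehicle over all 36 arrays, two-sided, with Benjamini-Hochberg adjustment over 31042 probe sets and a threshold of 0.05. An F test covered the 5 doses, and a trend was fitted as a slope per dose step, counted from 0 (vehicle) to 5. Where a gene has several probe sets, that with the strongest average signal stands for it. The fit was also run on simulated data, with noise drawn independently for each probe set. The subunit genes of 1 array leaned together, so that run does not cover this feature of the data.

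Named are the members of smallest p per comparison and direction, those of smallest F test p and highest mean per complex, the extremes of residual SD and the tissue-restricted forms with their partners. Ndufa8, Ndufs7 and the other subunits given by value were chosen after their values were seen, and so was the level of 10. The members and lists were chosen with earlier results of these data known. The alternatives were the replicate block, centred arrays, cyclic loess, 2 other variance settings, the beta-actin 3′ to 5′ difference as a covariate, a filter on level, the 12 arrays alone, a threshold of 0.1, averaging probe sets within a gene, the genes at level 10 or more, and each array left out.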

Additional observations from a re-analysis of the deposited data

Results flagged for a closer look

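The levels of the named subunits were checked for single animals standing apart from the other 5 of their group, by the gap to the nearest animal over the group's range. Over 162 groups of 6 checked, 12 animals stood apart, and chance flags about 1 in 20 groups.

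Vehicle replicate 5 was high in 3 genes. Its log2 level was 12.60 for Uqcrq (the others from 12.43 to 12.47), 12.42 for Cox8a (12.24 to 12.29) and 4.04 for Cox6b2 (3.48 to 3.65). The 9.71 mg/kg replicate 1 was high in 2 genes, at 11.67 for Cox6b1 (11.49 to 11.53) and 12.60 for Ndufa4 (12.42 to 12.49). These are the 2 animals with the largest share of subunit genes above their group mean. At 0.1 mg/kg, replicate 1 was high for Cox6b1 at 11.64 (11.45 to 11.50), replicate 5 was high for Cox7c at 11.72 (11.56 to 11.61) and replicate 4 was low for Ndufb9 at 11.95 (12.02 to 12.05). Ndufa4 was low in 0.97 mg/kg replicate 5 at 12.37 (12.46 to 12.51) and in 970 mg/kg replicate 3 at 12.33 (12.47 to 12.52). Ndufa4l2 was low in 0.97 mg/kg replicate 6 at 3.26 (3.68 to 3.90). Sdha was high in 97.1 mg/kg replicate 6 at 11.03 (10.86 to 10.92). Without vehicle replicate 5, the log2 fold change of Cox6b2 at 0.97 mg/kg was -0.21, against -0.29 with it.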

How the results depend on the processing

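The count of subunit probe sets past the limma threshold was 0 at each dose, in the F test and in the trend under every alternative run, also with each array left out in turn. The smallest limma adjusted p over these was 0.69, in the comparison of 970 mg/kg with vehicle with 1 array left out. Arrays with the same replicate number did not deviate together (mean r of residuals 0.0048 over 90 pairs, from -0.25 to 0.26), so the number was not taken to pair animals. With the replicate number as a block the count was 0 as well, and the median log2 fold change at 970 mg/kg was -0.017. Medians over the subunit genes moved by less than the spread between replicates under all alternatives. At 970 mg/kg they ran from -0.021 to -0.0024 over the settings and from -0.024 to -0.0073 with 1 array left out, and at 9.71 mg/kg from -0.012 to 0.0044, and its sign changed; so did those at 97.1 mg/kg (-0.020 to 0.0025) and, with 1 array left out, at 0.1 mg/kg (-0.014 to 0.0021). The genes of smallest p kept their direction under each alternative run for them; the filter on level leaves out the weak Cox7a1, Cox6b2 and Cox6a2. Cox7a1 at 0.1 mg/kg was 0.10 without 0.1 mg/kg replicate 2, and the slope of Cox6a2 was 0.019 without vehicle replicate 5. Without vehicle replicate 5, where both were high, Uqcrq at 970 mg/kg moved from -0.04 to -0.01 and Cox8a from -0.05 to -0.02. Signal over background limits the 7 tissue-restricted forms: a change of the transcript could go unseen there.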

Other observations

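Other genes of mitochondria were read at the doses below the highest, where the subunits gave no call. Of the 73 mitochondrial ribosome genes, which encode the proteins that translate the mitochondrial transcripts, 0 passed the limma threshold at any dose. The median log2 fold change was -0.037 at 0.97 mg/kg with 9 above 0 and -0.025 at 9.71 mg/kg with 15 above 0. It was -0.018 at 97.1 mg/kg with 24 above 0 and -0.020 at 0.1 mg/kg with 13 above 0. The shares below 0 were 87.7%, 79.5%, 67.1% and 82.2% in that order, against 51.3%, 53.1%, 50.4% and 49.4% of all genes tested. Of the 1158 genes with a level of 10 or more, 63.3%, 56.6%, 59.8% and 49.1% were below 0, in the same order. All use 1 set of vehicle arrays. In vehicle replicate 5, 89.0% of these ribosome genes lay above their group mean, and the part of that array in these medians was not tested. At 0.97 mg/kg 3 of the 73 (4.11%) had an unadjusted limma p under 0.05, against 4.92% of all probe sets.

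Among the regulators, Gabpb1, a subunit of the ETS factor GABP, had a log2 fold change of -0.28 at 9.71 mg/kg (limma adjusted p = 0.97), and Ppargc1b, a coactivator of respiratory genes, had -0.27 at the same dose (limma adjusted p = 0.97). Ppargc1a, its relative that responds to fasting, had -0.42 at 0.97 mg/kg (limma adjusted p = 0.98). Pprc1, the third member of that family, had 0.59 at 97.1 mg/kg (limma adjusted p = 0.90). None of these passed, and each was named after its value was seen.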
